A study of Homo sapiens with 9 samples.

Results

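Replication of the genome depends on proteins that mark origins, load and start the helicase, copy the strands and supply deoxynucleotides, and 47 genes that encode them were followed here through an experiment on misfolded surfactant protein C. The 47 genes were chosen by name, with earlier results of these data known. Each was represented by the brightest probe set whose platform annotation names that gene and no other, and all 47 of 47 had such a probe set, out of 14018 genes tested in all. HEK293 is a line of human embryonic kidney cells that carries adenoviral E1A. The cells were transiently transfected with surfactant protein C carrying the L188Q substitution (LQ), with the protein lacking exon 4 (Ex4) or with the wild-type protein (WT), and each group had 3 arrays. WT cells thus also received a surfactant protein C construct and served as the control. The labels give neither the promoter of the constructs nor the share of cells that took them up, and they do not say whether the 3 arrays of a group were separate cultures, so the p-values cover array-to-array spread that could be technical.

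In a dividing human cell, the origin recognition complex (ORC) binds origins in G1 phase and, with CDC6 and CDT1, loads the ring-shaped MCM2-7 helicase onto DNA. At the start of S phase the kinase CDC7 with its activator DBF4, together with MCM10, CDC45 and the GINS complex, turns the loaded helicase on, and polymerases, the PCNA clamp and its loader follow. Many of these genes are transcribed from promoters bound by E2F factors, which the retinoblastoma protein RB holds in check, and E1A is known to bind RB.

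The 47 genes were mostly bright. Their median level was 12.93 on the log2 scale, against 10.14 over all tested probe sets, and 39 of them lay among the brightest 20% of tested probe sets. None lay below its array's median on any array, and the dimmest was GINS4, with a mean level of 10.03 and 324.9 on Ex4 replicate 2. The array medians were lower in the mutants, at 303.9 to 371.8 in LQ and 316.1 to 434.3 in Ex4, against 506.4 to 524.4 in WT, while the trimmed means were held equal by the deposited scaling. Brighter probe sets had more positive changes on this scaling. In LQ against WT the median log2 change was 0.15 over the brightest 20% and -0.15 over all 32768 tested probe sets. In Ex4 against WT it was 0.12 and -0.12. Ex4 replicate 1 stood apart from its group, with a mean correlation of 0.906 with the other Ex4 arrays and 0.911 with the WT arrays. The WT arrays had mean correlations of 0.892, 0.903 and 0.911 with each other and the LQ arrays 0.956 to 0.959. All 6 HEK293 markers measured here lay above the array median on all 9 arrays. PAX2, a kidney developmental factor, was lower in LQ than in WT, with a log2 change of -2.04 ± 0.40 (SE, limma adjusted p = 0.025), as was the fibroblast collagen COL1A1 (-0.96 ± 0.20, adjusted p = 0.028). In Ex4 against WT PAX2 had -1.82 ± 0.40 (limma adjusted p = 0.077) and COL1A1 -0.52 ± 0.20 (adjusted p = 0.14). The other 5 HEK293 markers did not pass in LQ, with LHX1 at -0.84, NEFH at -0.56, NEFM at -0.17, NEFL at -0.06 and INA at 0.13.

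The summed level of 6 blood cell markers was 1331 to 1632 in LQ, 1608 to 1761 in Ex4 and 2415 to 3154 in WT, with PTPRC and LYZ below the array median on all arrays. For 7 fibroblast markers it was 3654 to 4781 in LQ, 5138 to 6253 in Ex4 and 7170 to 8430 in WT, with COL3A1, LUM and PDGFRA below the median on all arrays. For 8 alveolar type II markers other than the transfected gene it was 4670 to 5312 in LQ, 3955 to 4667 in Ex4 and 5108 to 7379 in WT, with SFTPD below the median on all arrays. The part of these levels in the results was not tested. The RNA is from whole cultures, so a change in the share of cells in S phase and a change in RNA per cell cannot be told apart.

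The promoters of these genes are shown because E2F sites are the sequence feature that the family is known for. RefSeq windows from 250 bases before to 50 after the annotated start (GRCh38.p14) were available for 41 of the 47 genes and were searched on both strands for TTTCCCGC, TTTCGCGC, TTTGCCGC and TTTGGCGC, the versions of an E2F-type motif. At least 1 match stood in a window of 20 of the 41 genes (48.8%), against 5.36% of 15384 genes with both a window and a probe set. All 4 helicase subunit genes with a window had a match, as did all 3 licensing genes, and 1 of the 6 ORC genes. MCM3 and CDC6 are printed as genes that rose in LQ and hold the motif, MCM6 as a helicase subunit that holds it 4 times and did not pass the test, and ORC1 as a gene that rose and has no match. Each run goes 5′ to 3′ on the gene's strand from 250 bases before to 30 after the start, with motif matches in capitals; in MCM6 matches on opposite strands overlap. MCM3 lies at chr6:52284713-52284992 (minus strand), CDC6 at chr17:40287629-40287908 (plus strand), MCM6 at chr2:135876414-135876693 (minus strand) and ORC1 at chr1:52404394-52404673 (minus strand).
MCM3: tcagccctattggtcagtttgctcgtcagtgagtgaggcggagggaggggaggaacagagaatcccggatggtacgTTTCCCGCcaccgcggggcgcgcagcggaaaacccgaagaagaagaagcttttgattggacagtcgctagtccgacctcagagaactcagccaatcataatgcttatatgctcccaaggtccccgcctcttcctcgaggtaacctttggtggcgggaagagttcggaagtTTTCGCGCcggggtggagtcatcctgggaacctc
CDC6: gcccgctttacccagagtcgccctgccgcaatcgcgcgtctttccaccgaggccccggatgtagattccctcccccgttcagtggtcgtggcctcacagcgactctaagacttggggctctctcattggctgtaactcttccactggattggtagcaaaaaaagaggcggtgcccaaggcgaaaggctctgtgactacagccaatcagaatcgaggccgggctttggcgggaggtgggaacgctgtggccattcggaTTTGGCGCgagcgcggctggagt
MCM6: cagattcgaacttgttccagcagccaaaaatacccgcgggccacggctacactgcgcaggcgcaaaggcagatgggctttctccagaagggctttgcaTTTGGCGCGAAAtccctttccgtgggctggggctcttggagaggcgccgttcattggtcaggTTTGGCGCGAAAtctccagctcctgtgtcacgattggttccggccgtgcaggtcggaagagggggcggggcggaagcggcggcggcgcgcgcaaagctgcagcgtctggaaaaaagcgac
ORC1: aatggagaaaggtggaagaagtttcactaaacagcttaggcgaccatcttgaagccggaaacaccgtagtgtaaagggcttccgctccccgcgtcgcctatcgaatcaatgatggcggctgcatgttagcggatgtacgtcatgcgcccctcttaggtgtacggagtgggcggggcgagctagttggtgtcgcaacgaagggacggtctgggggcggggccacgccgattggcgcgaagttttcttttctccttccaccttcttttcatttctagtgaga

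Of the 5 genes that rose in LQ and had a window, 2 held the motif (CDC6 and MCM3), and so did 18 of the 36 that did not pass. The pentamer CCAAT, on either strand, stood in the windows of all 5 (CDC6, MCM3, MCM10, ORC1 and RFC1) and of 19 of the 36, against 41.7% of genes with a window and a probe set. CCAAT and the E2F-type motif were counted separately, and CCAAT was searched after the results were known. A match is a description of the window and not a measured binding site.

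LQ against WT asked which replication genes change with the L188Q protein. Of the 47 genes, 6 rose and 0 fell by limma at an adjusted p under 0.05, namely ORC1, CDC6, MCM3, MCM4, MCM10 and RFC1. By role, they were 1 of 6 origin recognition genes, 1 of 3 licensing genes and 2 of 6 helicase subunit genes. The others were 1 of 8 helicase activation genes and 1 of 6 clamp and clamp loader genes. The roles were not tested as sets. The 6 of 47 are 12.8%, against 3.69% of all 14018 tested genes called higher and 3.63% called lower, and 8.83% of the brightest 20% of tested probe sets. The list was chosen with earlier results of these data known, so these shares are a description. The rises of the 6 genes were between 1.55-fold and 1.96-fold. The median log2 change over the 47 was 0.19, against -0.09 over all tested genes and 0.15 over the brightest 20%. Thus the members as a list moved about as far as other bright probe sets.

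**Figure D1:**
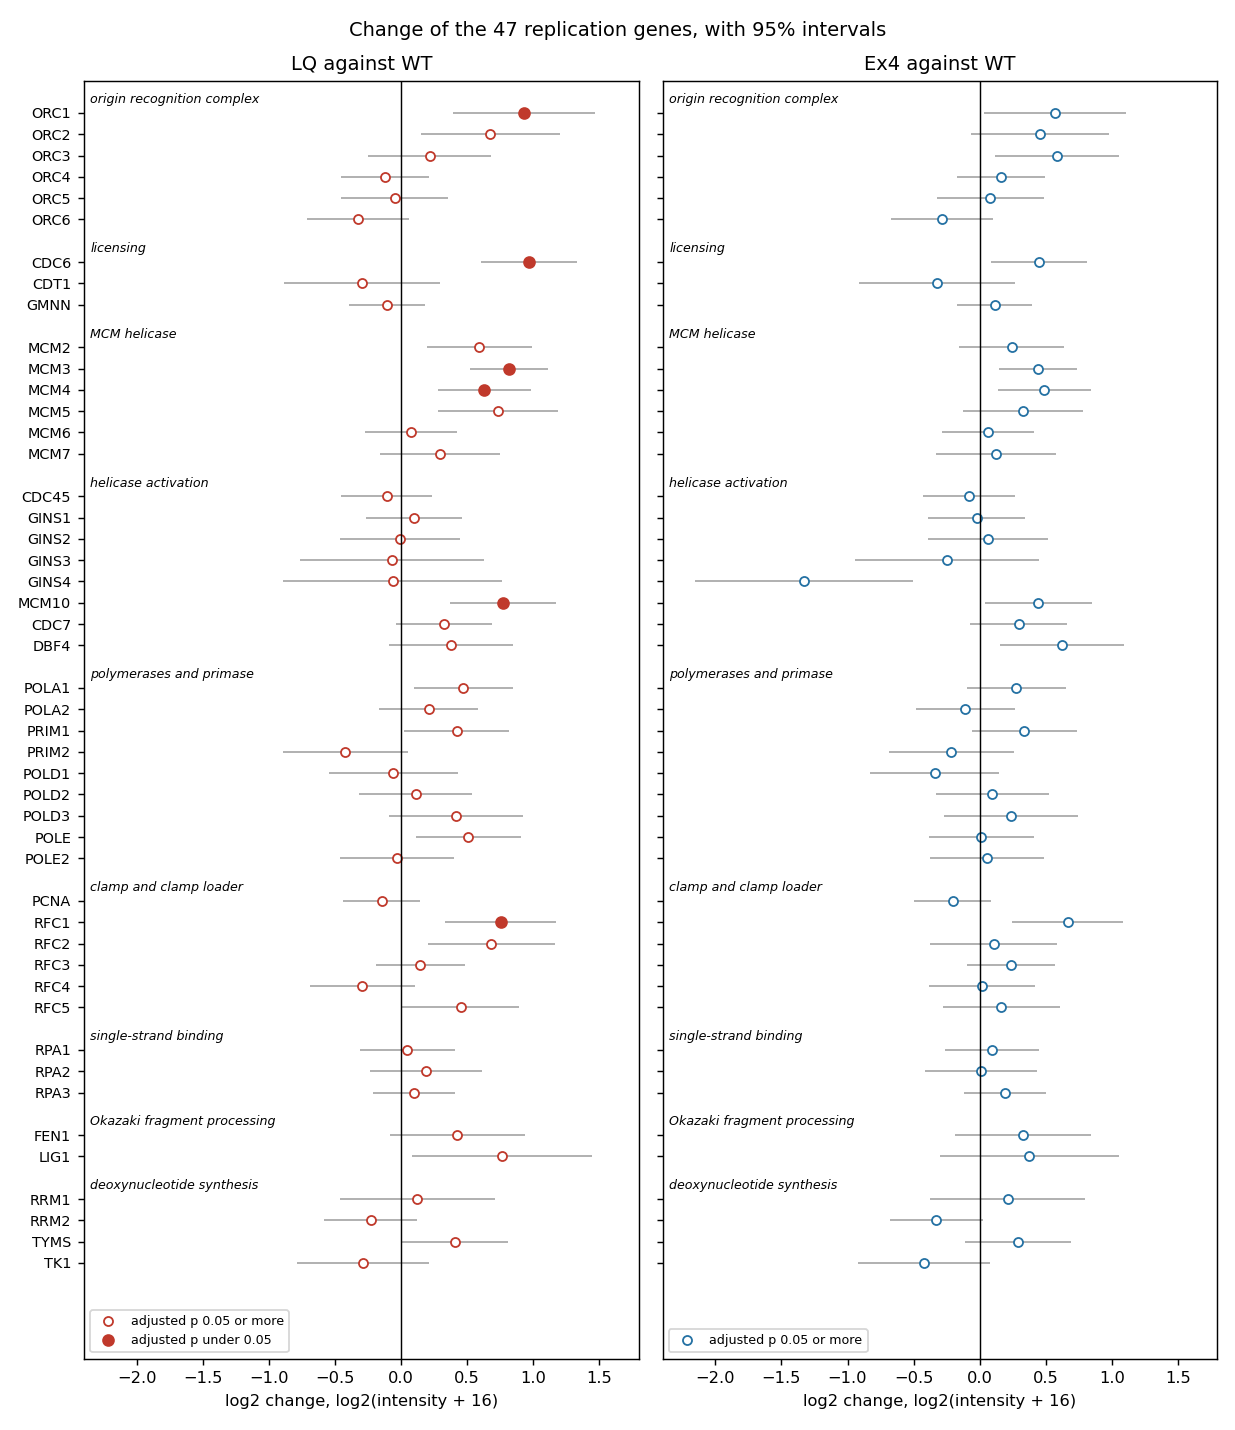
Log2 change of each of the 47 genes in LQ against WT (left panel) and Ex4 against WT (right panel), with 95% limma intervals as lines and genes grouped by role down the page. Filled points passed at an adjusted p under 0.05, which 6 genes did in LQ and 0 did in Ex4.

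CDC6, the loader that joins ORC to bring the helicase to origins, had the highest fold. Its intensity was 9997, 10358 and 9105 on LQ replicates 1 to 3, 5648, 7679 and 7400 on the Ex4 arrays, and 5372, 5235 and 4462 on the WT arrays. All LQ arrays were above all other arrays. The fold in LQ against WT was 1.96 (log2 change 0.97 ± 0.17, SE, limma adjusted p = 0.020). The other licensing genes did not pass. CDT1, the partner of CDC6 in loading, had a log2 change of -0.30 (adjusted p = 0.49), with WT arrays between 14961 and 31346. GMNN, which encodes the CDT1 inhibitor geminin, had -0.11 (adjusted p = 0.62).

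ORC1, the ORC subunit whose level varies most with the human cell cycle, gave 2373, 2165 and 2647 in LQ, 1563, 1682 and 2430 in Ex4, and 1423, 1452 and 933 in WT. LQ lay above WT on every array, and the fold was 1.91 (log2 0.93 ± 0.25, adjusted p = 0.046). ORC2, another core subunit, gave 5196, 4031 and 3900 in LQ, 2706, 3909 and 4878 in Ex4, and 3410, 2536 and 2297 in WT. Its LQ arrays were also above all WT arrays, but it did not pass (log2 change 0.68 ± 0.24, adjusted p = 0.096). Its second probe set had -0.21 (adjusted p = 0.48). The other 4 subunits had -0.33 (ORC6), -0.12 (ORC4), -0.05 (ORC5) and 0.22 (ORC3), with overlapping arrays.

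All 6 subunits of the MCM2-7 helicase had positive log2 changes in LQ, and 2 of them passed. MCM3 gave 24605, 25037 and 24694 in LQ, 17488, 20964 and 18903 in Ex4, and 15164, 13149 and 13885 in WT. The groups did not overlap, and LQ was 1.76-fold above WT (log2 change 0.82 ± 0.13, adjusted p = 0.019). MCM4 gave 7691, 8184 and 7710 in LQ, 6399, 8173 and 6919 in Ex4, and 5358, 5554 and 4377 in WT. LQ was 1.55-fold above WT on that probe set (log2 change 0.63 ± 0.16, adjusted p = 0.043). The other 3 tested MCM4 probe sets had 0.28, 0.29 and -0.56, none past the threshold (adjusted p = 0.44, 0.29 and 0.23), so the MCM4 rise rests on 1 probe set.

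MCM5 gave 15290, 17908 and 22758 in LQ, 11768, 15830 and 14470 in Ex4, and 8567, 11350 and 13908 in WT (log2 change 0.73 ± 0.21 in LQ against WT, adjusted p = 0.054). MCM2 gave 21027, 21266 and 25952 in LQ, 14168, 18621 and 21352 in Ex4, and 12667, 16924 and 15795 in WT (log2 change 0.59 ± 0.18, adjusted p = 0.066). For both genes the LQ arrays were above all WT arrays while the Ex4 arrays overlapped both groups. MCM7 had 0.29 (adjusted p = 0.37) and also did not overlap with WT. MCM6 had 0.08 ± 0.16 (adjusted p = 0.78), with 23138 to 28592 in LQ, 22808 to 29426 in Ex4 and 21882 to 28757 in WT. On this probe set and the deposited scaling its 95% interval of -0.27 to 0.43 excludes a change as large as that of MCM3. The second MCM6 probe set had 0.34 (adjusted p = 0.46), and its interval of -0.29 to 0.96 includes a change of that size.

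**Figure D2:**
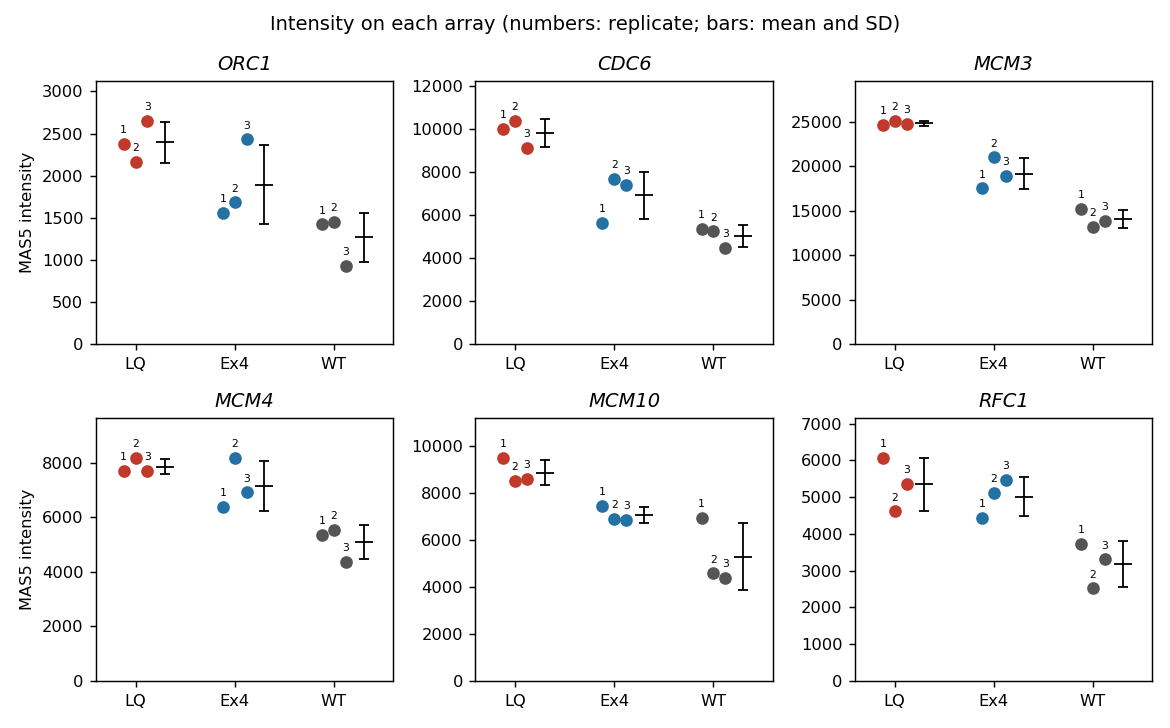
MAS5 intensity of ORC1, CDC6, MCM3, MCM4, MCM10 and RFC1 on each array, with LQ, Ex4 and WT from left to right, replicate numbers beside the points and the mean ± SD as bars (n = 3). In each panel the LQ arrays lie above all WT arrays, and for CDC6, MCM3 and MCM10 also above all Ex4 arrays.

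Among the genes that activate the helicase, MCM10 rose, the other 7 did not pass, and none fell. MCM10, which acts with the assembled helicase at the onset of unwinding, gave 9492, 8520 and 8591 in LQ, 7435, 6898 and 6837 in Ex4, and 6932, 4571 and 4377 in WT. LQ was above both other groups on every array, and the fold against WT was 1.71 (log2 change 0.77 ± 0.19, adjusted p = 0.037). Its other probe sets had 1.09 ± 0.32 (adjusted p = 0.059) and 0.21 ± 0.16 (adjusted p = 0.40). CDC7 and its activator DBF4 had 0.33 and 0.38 (adjusted p = 0.21 and 0.26). CDC45 had -0.11, and GINS1, GINS2, GINS3 and GINS4 lay between -0.07 and 0.10, with adjusted p of 0.68 or more for all 5.

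Of the polymerase and primase genes, 0 of 9 passed, and 6 had positive changes. The smallest p was that of POLE, the catalytic subunit of the leading-strand polymerase epsilon, which gave 5191, 4834 and 4890 in LQ, 3538, 3745 and 3275 in Ex4, and 4040, 2745 and 3810 in WT (log2 change 0.51 ± 0.18, adjusted p = 0.096). All LQ arrays were above the other 6 arrays. POLA1, the catalytic subunit of polymerase alpha, had 0.47 ± 0.17 (adjusted p = 0.099) and its LQ arrays were above all WT arrays. The primase subunits went in opposite directions without passing, with 0.42 for PRIM1, the catalytic subunit, and -0.42 for PRIM2, the large subunit (adjusted p = 0.15 and 0.22). POLA2, the accessory subunit of polymerase alpha, had 0.21 (adjusted p = 0.44). The polymerase delta subunits POLD1, POLD2 and POLD3 had -0.06, 0.11 and 0.41 (adjusted p = 0.89, 0.74 and 0.26), and POLE2, the second subunit of polymerase epsilon, had -0.03 (adjusted p = 0.94).

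RFC1, the large subunit of the clamp loader, rose 1.69-fold in LQ (log2 change 0.76 ± 0.19, adjusted p = 0.042). It gave 6068, 4613 and 5356 in LQ, 4444, 5119 and 5472 in Ex4, and 3724, 2516 and 3306 in WT, and both mutants lay above all WT arrays. A second RFC1 probe set also passed, with 1.27 ± 0.30 (adjusted p = 0.037). RFC2, a small subunit, gave 12347, 12942 and 13945 in LQ, 7723, 10614 and 8210 in Ex4, and 5777, 8361 and 11143 in WT, and did not pass (0.68 ± 0.22, adjusted p = 0.075). Its second probe set had -0.03. The small subunits RFC3, RFC4 and RFC5 had 0.15, -0.29 and 0.45 (adjusted p = 0.55, 0.31 and 0.16). PCNA, the clamp itself, gave 23952, 22542 and 24482 in LQ, 25098, 22841 and 20408 in Ex4, and 24512, 27471 and 26560 in WT. Its log2 change of -0.15 ± 0.13 did not pass (adjusted p = 0.50).

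The remaining roles had no call. Of the genes whose products coat single-stranded DNA, RPA2 had the smallest p. It gave 10227, 11676 and 11712 in LQ, 8617, 11105 and 10040 in Ex4, and 7236, 11658 and 11171 in WT, with overlapping groups (log2 change 0.19 ± 0.19, adjusted p = 0.54). RPA1 and RPA3 had 0.05 and 0.10 (adjusted p = 0.87 and 0.66). LIG1, which joins Okazaki fragments, gave 3452, 2738 and 3168 in LQ, 1820, 3604 and 2024 in Ex4, and 2065, 1160 and 2513 in WT. Its LQ arrays were above all WT arrays, yet its error was wide (0.77 ± 0.31, adjusted p = 0.13). FEN1, the flap endonuclease of the same step, had 0.43 ± 0.23 (adjusted p = 0.25). TYMS, which makes thymidylate, gave 42639, 42884 and 53505 in LQ, 34204, 51194 and 43827 in Ex4, and 28578, 37012 and 39556 in WT (0.41 ± 0.18, adjusted p = 0.17). RRM1 and RRM2, the ribonucleotide reductase subunits, had 0.12 and -0.23, and TK1, thymidine kinase, had -0.29 (adjusted p = 0.79, 0.36 and 0.42).

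Counting arrays instead, 18 of the 47 genes had all LQ arrays above all WT arrays (38.3%) and 3 had all LQ arrays below (6.38%). Over all tested genes these shares were 15.7% above and 23.2% below, and over the brightest 20% of tested probe sets 30.3% and 10.6%. The 3 below were PRIM2, PCNA and RFC4. For 38 of the 47 genes the 95% interval of the log2 change in LQ against WT stayed within 2-fold in either direction.

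Scaling moved the size of the 6 rises but not their direction. After quantile normalization 3 of the 47 genes were called higher and 0 lower (ORC1, CDC6 and MCM3), and MCM4, MCM10 and RFC1 had adjusted p = 0.094, 0.083 and 0.072. After median centring of the arrays 27 were higher and 0 lower. Over all probe sets the calls were 1011 higher and 1220 lower as deposited, 669 and 485 after quantile normalization and 7934 and 518 after centring. Centring moved the median change of all tested probe sets to 0.44, and 41 of the 47 genes lay above that median, as 41 lay above -0.15 before it. After quantile normalization the median was 0.04, and 25 of the 47 lay above it.

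The calls also rested on single arrays. No member passed without LQ replicate 1, 2 or 3, or without WT replicate 2 or 3, each left out in turn, when 7 to 41 of the 32768 probe sets were called higher and 0 to 5 lower. Without Ex4 replicate 1 the count of members was 9, without Ex4 replicate 2 it was 5, without Ex4 replicate 3 it was 4 and without WT replicate 1 it was 8. The share of all probe sets called higher moved too, to 5.22% without Ex4 replicate 1, 2.77% without Ex4 replicate 2, 2.44% without Ex4 replicate 3 and 8.23% without WT replicate 1, against 3.09% with all arrays. The log2 change kept its sign in all 9 fits, between 0.77 and 0.87 for MCM3 and between 0.88 and 1.02 for CDC6. The highest adjusted p over these fits was 0.087 for MCM3 and CDC6, 0.12 for MCM10, 0.13 for MCM4, 0.14 for RFC1 and 0.16 for ORC1. With the replicate number as a block ORC1 lost its call (adjusted p = 0.057), and 7 members passed.

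**Figure D3:**
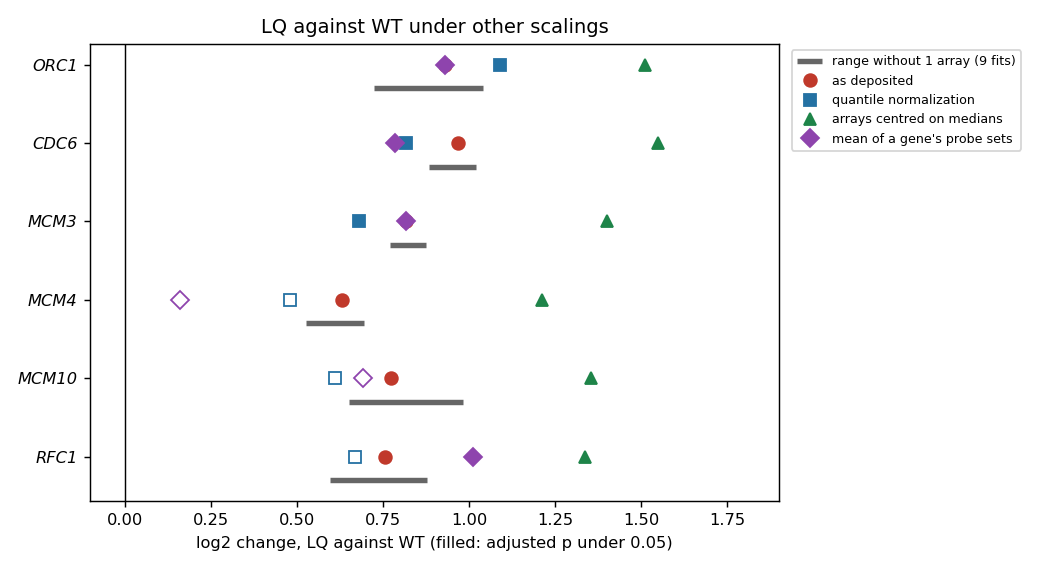
Log2 change in LQ against WT of the 6 genes that passed, as deposited, after quantile normalization, after centring arrays by median and averaged over each gene's probe sets. Filled symbols passed at an adjusted p under 0.05, and grey bars span the 9 fits that leave out 1 array. All values lie above 0, and centring gives the highest, from 1.21 for MCM4 to 1.55 for CDC6.

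Ex4 against WT asked the same of the protein lacking exon 4. No member passed by limma (0 of 47 higher and 0 lower), against 0% of all 14018 tested genes in either direction. An unadjusted limma p under 0.05 was reached by 9 of the 47. Over all tested genes 3812 of 14018 reached it, and among the brightest 20% of tested probe sets 1858 of 6554. The median log2 change over the 47 was 0.12, against -0.08 over all tested genes and 0.12 over the brightest 20%. Of the 47, 35 were positive (74.5%), against 43.6% of all tested genes and 63% of the brightest 20%. All Ex4 arrays were above all WT arrays for 8 of the 47 genes (17.0%, against 9.07% of all tested genes and 17.0% of the brightest 20%). These were ORC1, CDC6, GMNN, MCM3, MCM4, DBF4, POLA1 and RFC1. For 1 gene, GINS4, they were all below (2.13%), against 14.9% of all tested genes and 4.3% of the brightest 20%.

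The values in Ex4 against WT for the 6 genes that rose in LQ were as follows, on the same WT arrays. MCM3 had a log2 change of 0.44 ± 0.13 (adjusted p = 0.098) and CDC6 0.45 ± 0.17 (adjusted p = 0.13). RFC1 had 0.67 ± 0.19 (adjusted p = 0.091) and ORC1 0.57 ± 0.25 (adjusted p = 0.18). MCM4 had 0.49 ± 0.16 (adjusted p = 0.11) and MCM10 0.44 ± 0.19 (adjusted p = 0.17). On these probe sets all 6 were positive and none passed. The second CDC6 probe set had 0.07 ± 0.17 (adjusted p = 0.82), with overlapping arrays. The other 3 tested MCM4 probe sets had 0.17, 0.26 and -0.75 (adjusted p = 0.67, 0.37 and 0.15). Those of MCM10 had 0.21 and 0.40 (adjusted p = 0.44 and 0.46), and a second one of RFC1 had 1.17 (adjusted p = 0.081). DBF4 had 0.63 ± 0.22 (adjusted p = 0.12), with 5466, 6691 and 5108 in Ex4 and 5004, 2982 and 3388 in WT.

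GINS4, a subunit of the GINS complex, had the most negative value in Ex4. It gave 1749, 1589 and 923 in LQ, 946, 325 and 565 in Ex4, and 1838, 1326 and 1203 in WT. All Ex4 arrays lay below all WT arrays, with a log2 change of -1.33 ± 0.38 that did not pass (adjusted p = 0.089). Its other 3 probe sets had -0.55, -0.50 and -1.37, also short of the threshold (adjusted p = 0.27, 0.43 and 0.17). The genes of deoxynucleotide synthesis ranged from -0.42 for TK1 to 0.29 for TYMS.

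The Ex4 count depended on single arrays and on scaling. Without Ex4 replicate 1, which correlated as well with WT as with its own group, 3 members were higher (CDC6, MCM3 and RFC1) and 1 was lower (GINS4), with 1415 probe sets higher (4.32%) and 3018 lower in all. Without WT replicate 1 there were 5 higher (ORC3, MCM3, MCM10, DBF4 and RFC1) and 1 lower (RRM2), with 2253 probe sets higher (6.88%) and 1426 lower in all. After median centring of the arrays 15 were higher and 0 lower, with 14.7% of all probe sets higher, and after quantile normalization 0 passed.

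LQ against Ex4 asked whether the mutants differ from each other. No member passed (0 of 47 in either direction), against 0% of all tested genes higher and 0% lower. An unadjusted limma p under 0.05 was reached by 5 of the 47. Over all tested genes 588 of 14018 reached it, and among the brightest 20% of tested probe sets 345 of 6554. The median log2 difference over the 47 was 0.10, against -0.01 over all tested genes and 0.02 over the brightest 20%. All LQ arrays were above all Ex4 arrays for 6 of 47 genes (12.8%, against 5.91% of tested genes and 8.77% of the brightest 20%), namely CDC6, MCM3, MCM10, POLA2, POLE and RFC2. They were below for 2 (ORC4 and GMNN, 4.26%), against 6.47% of tested genes and 6.03% of the brightest 20%. The difference was 0.52 ± 0.17 for CDC6, with a 95% interval of 0.15 to 0.88, and 0.38 ± 0.13 for MCM3, with an interval of 0.09 to 0.67. For GINS4 it was 1.27 ± 0.38, with overlapping arrays, and its other 3 probe sets had -0.34, 0.32 and 0.38. The brightest probe set of each of these 3 genes had an unadjusted p under 0.05 and an adjusted p of 0.9999. For 44 of 47 genes the interval of the difference stayed within 2-fold either way, so larger differences between the mutants are outside the intervals for those genes.

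Array by array, the 6 genes that rose in LQ lay apart from the rest of the 47. Each gene's log2 level was expressed as its difference from its own mean over the 9 arrays. The median of these over the 6 genes was 0.31 to 0.44 in LQ, -0.07 to 0.15 in Ex4 and -0.61 to -0.30 in WT. These genes were picked for their difference, so the order LQ, Ex4, WT is a description. Over the other 41 genes the median was 0.05 to 0.12 in LQ, -0.08 to 0.07 in Ex4 and -0.18 to 0.03 in WT, so LQ was above WT on all arrays by little. In Ex4 replicate 1 both sets lay below 0, at -0.07 and -0.08, and in the other Ex4 arrays both lay above. WT replicate 1 was the lowest array for the 41 genes and the highest WT array for the 6.

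**Figure D4:**
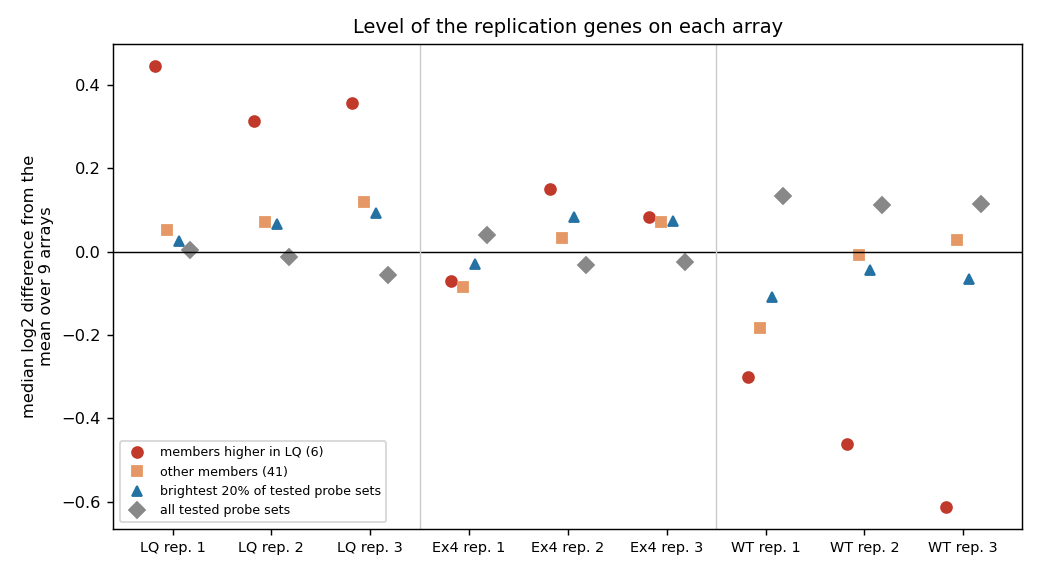
Median log2 difference from the 9-array mean on each array, for the 6 genes that rose in LQ, the other 41 genes, the brightest 20% of tested probe sets and all tested probe sets. The 6 genes sit at 0.31 to 0.44 on the LQ arrays and -0.61 to -0.30 on the WT arrays, while the other 41 stay between -0.18 and 0.12 on all arrays.

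The genes with several probe sets gave a check on the choice of the brightest. A further 39 probe sets named 25 of the 47 genes, and 36 of them were bright enough to be tested. In LQ against WT 20 of the 36 were positive, 1 was called higher (RFC1) and 0 lower, with a median of 0.20. Of the 14 among the brightest 20% of tested probe sets, 12 were positive, with a median of 0.39. Of the 22 dimmer ones 8 were positive, with a median of -0.16. Over all tested probe sets 40.8% were positive in LQ against WT (median -0.15) and 3.09% were called higher. Over the brightest 20% of tested probe sets 63.5% were positive (median 0.15) and 8.83% were called higher. The second probe set of CDC6 had 0.60 ± 0.17 (adjusted p = 0.052), that of FEN1 0.46 ± 0.15 (adjusted p = 0.078), and a second one of TYMS 0.56 ± 0.18 (adjusted p = 0.075). For RRM1 a second probe set had 0.46 ± 0.17 (adjusted p = 0.10), where the brightest had 0.12. RFC3 had 0.60 ± 0.17 (adjusted p = 0.053) on a second probe set and 0.15 on the brightest. The most negative were probe sets of RPA1 (-1.03, adjusted p = 0.081), POLA2 (-1.002, adjusted p = 0.086) and GINS4 (-0.997, adjusted p = 0.27), all dim. The probe sets of CDT1 and of RRM2 went in opposite directions, with second values of 0.67 and 0.26 (adjusted p = 0.19 and 0.32) against -0.30 and -0.23 on the brightest.

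The genes around this set were described from 3 further lists, also chosen with earlier results of these data known. Of 20 regulators of the entry into S phase, all tested, 3 rose in LQ and 0 fell (15.0%, median 0.34), against 3.69% of all tested genes (median -0.09) and 8.83% of the brightest 20% of tested probe sets (median 0.15), and none passed in Ex4. CDC25A, the phosphatase that activates CDK2, gave 11850, 9561 and 6832 in LQ, 4393, 6496 and 5379 in Ex4, and 3218, 4242 and 2377 in WT. LQ was 2.87-fold above WT (log2 change 1.52 ± 0.25, adjusted p = 0.020), and the LQ arrays were above all others. E2F8, a repressive E2F factor, gave 4691, 4101 and 4067 in LQ, 3830, 2751 and 2505 in Ex4, and 2669, 2069 and 1699 in WT, a 2.02-fold rise in LQ (adjusted p = 0.030). E2F2, an activating E2F, had 1.32 ± 0.34 (adjusted p = 0.044), and 0.18 when averaged over its probe sets. CDC25A passed in 5 of the 9 fits without 1 array, E2F8 in 4 and E2F2 in 2.

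Of 26 other genes of the replication fork, 1 rose in LQ and 0 fell (3.85%, median 0.15), a share near the 3.69% of all tested genes and a median equal to that of the brightest 20%. The gene was DNMT1, which copies DNA methylation to the new strand, at 20566, 19697 and 22167 in LQ, 16008, 20928 and 17930 in Ex4, and 14734, 12573 and 13266 in WT. The fold in LQ against WT was 1.54 (log2 change 0.62 ± 0.15, adjusted p = 0.035). TICRR, a factor that helps to fire origins, had 0.68 ± 0.20 (adjusted p = 0.057). Of 23 measured genes of nucleotide metabolism among 24 listed, 1 rose and 0 fell (4.35%, median 0.11), again near the 3.69% of all tested genes. The gene was DUT, which removes dUTP, at 18042, 20414 and 21122 in LQ, 11805, 19965 and 21871 in Ex4, and 11352, 11564 and 11230 in WT (1.74-fold, adjusted p = 0.043). PFAS, an enzyme of purine synthesis, had -0.47 ± 0.15 (adjusted p = 0.065), with LQ at 5561 to 6232, Ex4 at 5806 to 6592 and WT at 7787 to 8812. After quantile normalization DNMT1, DUT and E2F2 did not pass, while CDC25A and E2F8 did.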

How the data were processed

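RNA from HEK293 cells was hybridised to 9 Affymetrix arrays, 3 per group. The authors deposited linear intensity values for every probe set, computed with MAS5 according to the submitters' processing notes (per the labels), with no version named. Trimmed means of 1493.7 to 1495.4 on all arrays show a common scaling, which was kept. Of 54613 probe sets that are not controls, 41091 carried 1 gene symbol, 1801 several and 11721 none, and only the first were named, with symbols updated through a RefSeq table.

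Values were used as log2(intensity + 16), which understates changes of dim probe sets, and a fold is 2 to the power of that change. Probe sets under percentile 40 of mean log2 level were left out, and 32768 were tested. All 9 arrays entered 1 limma fit (limma 3.58.1 under R 4.3.3) that let variance depend on level, two-sided, with Benjamini-Hochberg adjustment over all tested probe sets within each contrast and a threshold of 0.05. Intervals are 95%. Precision is limited by the 9 arrays.

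The genes and lists were chosen with earlier results of these data known. All 47 genes are named, in full where they passed or, in a role with no call, had the smallest p, and of each other list the 2 genes with the smallest p in LQ against WT; E2F2 was added after its value was seen. The model was tested on simulated data. Same-numbered arrays of different groups had correlations of -0.08 to 0.19 between their deviations, over 0.1 in 4 of 9 pairs, so the numbers were not used as pairs. Alternatives tried were quantile normalization, pseudocounts of 1 and 64, median centring, no filter and percentile 60, no trend, only the arrays compared, the replicate block, array weights, each array left out, and other choices of probe set.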

Additional observations from a re-analysis of the deposited data

How the results depend on the processing

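In LQ against WT, 6 members passed and the median log2 change over the 47 was 0.19. The count became 3 after quantile normalization and with no filter, 27 with arrays centred on their medians, 0 without the variance trend, 11 with array weights and 2 of 35 with the brightest probe set whose identifier carries neither _s_ nor _x_. It stayed at 6 with pseudocounts of 1 and 64, and was 7 with a filter at percentile 60, with only the arrays compared and when the replicate block was added, and 4 when probe sets of a gene were averaged. The share of all probe sets called higher, 3.09% before these changes, moved as well. This share was 2.04% after quantile normalization, 1.23% with no filter, 24.2% after centring, 0.354% without the trend and 11.4% with array weights. With pseudocounts of 1 and 64 it was 2.93% and 3.37%, and at percentile 60 it was 5.41%. With only the arrays compared it was 4.52%, with the block 3.19%, and after averaging 3.07% of genes. The median over the members became 0.057 after quantile normalization, 0.77 after centring and 0.11 with the restricted probe sets. Leaving out each array in turn gave 0 to 9 members and medians of 0.15 to 0.28. In those fits 0.0214% to 8.23% of all probe sets were called higher.

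In Ex4 against WT the count of 0 became 15 after centring and 11 with array weights (8 higher and 3 lower), and 0 to 6 with 1 array left out. It stayed at 0 with the replicate number as a block. Over all 32768 probe sets, 4824 were higher (14.7%) and 282 lower after centring. With array weights 2363 probe sets were higher (7.21%) and 2924 lower. With 1 array left out, 0 to 2253 probe sets were higher and 2 to 3018 lower. The median of 0.12 became 0.024 after quantile normalization, 0.61 after centring, and 0.11 to 0.21 with 1 array left out. In LQ against Ex4 the count was 0 in all alternatives, and the median of 0.10 became 0.19 after centring and ranged from 0.06 to 0.14 with 1 array left out.

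Over all alternatives, 26 of the 47 members took both signs in LQ against WT, 26 in Ex4 against WT and 21 in LQ against Ex4, and the 6 called in LQ against WT took 1 sign there. These counts include centring, which moved the median of all tested probe sets in LQ against WT from -0.15 to 0.44. After centring all 47 members were positive in LQ against WT, against 31 as deposited. In Ex4 against WT 46 were positive after centring, against 35 as deposited. RFC2 (0.68 in LQ against WT) had -0.03 and POLA2 (0.21) had -1.002 with the restricted probe sets. The genes described in full changed sign as follows, none past the threshold with the sign turned. In Ex4 against WT, POLE (0.01) had -0.051 after quantile normalization, -0.0041 with array weights, -0.03 without Ex4 replicate 2 and -0.16 without WT replicate 2. RPA2 (0.01) had -0.11 after quantile normalization, -0.067 with array weights, -0.08 without Ex4 replicate 2, -0.0033 without Ex4 replicate 3 and -0.21 without WT replicate 1, against up to 0.13 without WT replicate 2, and E2F2 (0.36) had -0.42 with the mean of its probe sets. In LQ against WT, RPA2 (0.19) had -0.029 without WT replicate 1 and up to 0.31 without WT replicate 2. In LQ against Ex4, RFC1 (0.09) had -0.0066 without LQ replicate 1, and without Ex4 replicate 1 TYMS (0.12) had -0.040 and DUT (0.20) had -0.077, against up to 0.25 for TYMS without Ex4 replicate 2 and 0.37 for DUT without Ex4 replicate 3. The cause of these shifts was not tested. The replicate number as a block changed the calls of ORC1, MCM2 and MCM5 among the members in LQ against WT and none in the other contrasts.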
